A study of Sus scrofa with 30 samples.

Results

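The study listed small RNA sequences of porcine endometrium that it could annotate, and 153 of them were listed under an Ensembl gene or under a name without the pig prefix, against 720 under a pig miRBase name. They were chosen by name alone: a sequence entered if its published name held an Ensembl gene identifier or lacked the pig prefix. By name they fell into 43 Ensembl-named sequences from 21 Ensembl genes, 107 sequences named after miRNAs of other species and 3 named after pig clones of the EMBL database. Of the Ensembl-named, 17 had an Ensembl name only, 24 also carried the name of another species' miRNA and 2 also carried a pig name. The 720 pig-named sequences served for comparison.

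The reads came from 30 endometrial small RNA libraries of Hampshire x Duroc crossbred gilts, 7 to 8 months old, from a single commercial herd. Endometrium was taken post mortem on day (D) 12, 16 or 20 of pregnancy (P) or of the estrous cycle (C), from 5 PD12, 5 PD16, 6 PD20, 4 CD12, 5 CD16 and 5 CD20 gilts, each labelled as a biological replicate. Up to D16 the conceptuses were flushed out of the uterine horns, whereas on D20 the embryos with their trophoblast were dissected away from the opened horn, so PD20 tissue had been in contact with attached trophoblast. The libraries held between 2029729 reads (PD16 replicate 3) and 6402731 reads (CD12 replicate 2), of which 75.3% to 87.2% matched a listed sequence exactly. In such whole-tissue samples, fewer cells of a type and less RNA per cell cannot be told apart.

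miRNAs are cut from hairpin precursors by Drosha and Dicer, and either strand of the hairpin, called the 5' or the 3' strand by its side, can be loaded into an Argonaute protein. The seed near the 5' end then directs pairing to messenger RNAs, so a shift of the cut by a single base at the 5' end gives another seed, whereas a change at the 3' end keeps it. Such length variants of one miRNA are isomiRs. The uterine lining of the pig meets the trophoblast with an intact epithelium, and the miR-200 family, miR-203 and miR-375 are widely used as epithelial miRNAs.

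The sequences that the comparisons below turn on are printed 5' to 3' with the seed, bases 2 to 8, in capitals. Of the called sequences, none shares its seed with another:
ENSSSCG00000026728, a read the study assigned to miR-302: tAAACGTGgatgtacttgcttt
ENSSSCG00000026388, longer form: gGGGATGTagctcagtggt
miR-106b-5p: tAAAGTGCtgacagtgcagata
mir-146a, 2 nt longer than the pig-named sequence: tGAGAACTgaattccatgggttat
miR-495: aAACAAACatggtgcacttctt
miR-380: tATGTAATatggtccacgtct
mir-449a: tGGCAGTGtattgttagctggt

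Abundant epithelial sequences are shown because members of the miR-200 family share a seed across classes of name, as miR-200b and miR-200c do here:
miR-200c: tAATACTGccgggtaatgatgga
mir-200b, Ensembl-named: tAATACTGcctggtaatgatga
miR-200b, named after another species: tAATACTGcctggtaatgatgac
mir-141: tAACACTGtctggtaaagatgg
mir-375: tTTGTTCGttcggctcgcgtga

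The miR-203a strand and the strand of ENSSSCG00000027451 are shown at neighbouring start sites, where the seed moves with the cut:
mir-203a, main start: gTGAAATGtttaggaccactaga
mir-203a, start 1 base later: tGAAATGTttaggaccactaga
ENSSSCG00000027451, main start: aATCACTAattccactgccatc
ENSSSCG00000027451, start 1 base later: aTCACTAAttccactgccatc

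The last set pairs abundant 3' extensions with the pig-named sequence they extend:
miR-143: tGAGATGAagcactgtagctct
pig-named miR-143-3p: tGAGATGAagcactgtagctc
mir-100: aACCCGTAgatccgaacttgtgt
pig-named miR-100: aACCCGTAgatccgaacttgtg
mir-140, ENSSSCG00000028710: aCAGGGTAgaaccacggacagga
pig-named mir-140: aCAGGGTAgaaccacggacagg
let-7F: tGAGGTAGtagattgtatagtc
pig-named let-7f: tGAGGTAGtagattgtatagt
miR-182: tTTGGCAAtggtagaactcacacc
pig-named mir-182: tTTGGCAAtggtagaactcacac

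Several libraries stood apart and are named here because results below rest on them. PD20 replicate 1 carried 240104 normalized reads of miR-143 with 1 added base, against 44104 ± 15644 (SD, n = 5) in the other PD20 libraries, and also the most muscle miRNA reads of the PD20 group (40186 against 1416 to 8098 in the others). The muscle reads were nearly all miR-1, at 9956 of a PD20 mean of 9980. Of the other muscle miRNAs looked for, miR-133a and miR-133b had no listed sequence. miR-206 and miR-499 were rare, and the mean of miR-499 was lower in PD20 than in PD12. PD20 replicate 6 held by far the most ENSSSCG00000026388. CD20 replicates 1 and 2 held more reads of the 5' than of the 3' strand of the mir-106b hairpin, unlike the other 28 libraries. PD20 replicate 3 and CD16 replicate 3 were far below the other libraries in some sequences that end in an added C, such as let-7F. A normalized read count is here the count per 1000000 reads of the listed sequences after TMM scaling, and since a read covers the whole small RNA, no scaling by length is needed.

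All 153 sequences had reads, and 123 had reads in all 30 libraries. The median of their mean levels was 10.7 normalized reads for the Ensembl-named and 10.2 for the other-species-named sequences, against 19.7 for the pig-named. A mean of at least 10 normalized reads was reached by 51.2% of the Ensembl-named, 51.4% of the other-species-named and 65.1% of the pig-named sequences. Only 2 Ensembl-named and 4 other-species-named sequences reached a mean of 1000, as did 2 of the 3 EMBL-clone-named and 57 of the pig-named. The median length was 22 nt, with 18 to 24 nt for Ensembl-named and 18 to 30 nt for other-species-named sequences, and 51.2%, 45.8% and 49.2% of the Ensembl-named, other-species-named and pig-named sequences began with T. None of these differences was tested.

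Ensembl-named sequences made up 0.454% ± 0.197 (SD, n = 30) of the reads of the list and other-species-named sequences 1.62% ± 0.406. In pregnant animals the Ensembl-named share was 0.438% ± 0.158 on D12, 0.551% ± 0.150 on D16 and 0.464% ± 0.182 on D20, and in cyclic animals 0.261% ± 0.0280, 0.601% ± 0.291 and 0.371% ± 0.147 on these days. The other-species-named share was 1.71% ± 0.260, 1.87% ± 0.427, 1.58% ± 0.400, 1.18% ± 0.123, 1.89% ± 0.528 and 1.40% ± 0.148 in the same order. Both shares were lowest in CD12 and highest in CD16, with ranges that overlapped between most groups. The 3 EMBL-clone-named sequences held more reads than all others together, 5.00% ± 2.32. In PD20 their share was 6.54% ± 4.60, and without replicate 1, which held 15.7%, it was 4.72% ± 1.22.

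**Figure D1:**
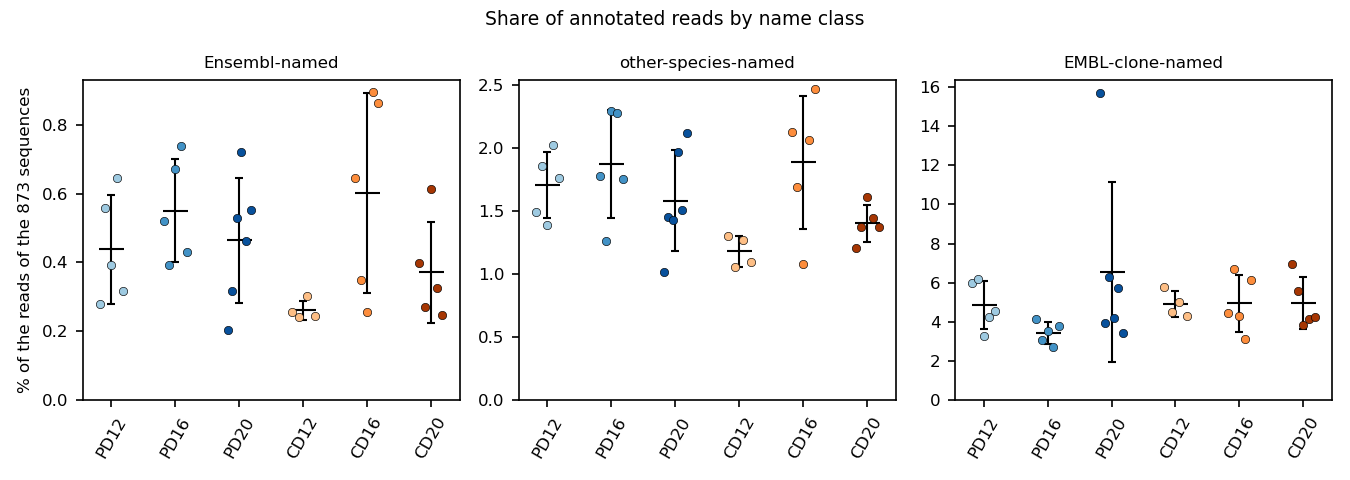
Percent of the reads of all listed sequences (y axes) that fell on Ensembl-named, other-species-named and EMBL-clone-named sequences in each of the 30 libraries (points) by group (x axes), with group means as lines and SD as error bars. Ensembl-named shares lie between 0.204% and 0.895%, and PD20 replicate 1 stands at 15.7% in the EMBL-clone-named share.

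A total of 35 of the 153 sequences contained a whole pig-named sequence and added bases at its 3' end only: 30 added a single base (T in 16, A in 6, C in 5, G in 3) and 5 added 2 bases. They therefore kept the seed of the pig-named miRNA. These 35 sequences held 78.1% of all reads of the 153. Another 2 differed from a pig-named sequence at an end in other ways, and 116 overlapped none.

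The extended form was usually the rarer one. The median over the 35 of the median ratio of extended to pig-named reads was 0.157, with a range from 8.21e-05 to 3. In 6 of the 35 the median ratio was above 1, and in 1, the mir-140 sequence ENSSSCG00000028710 with an added A, it was above 1 in all 30 libraries (median 3, range 1.46 to 6.33). miR-140 is best known from cartilage.

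miR-143, an abundant miRNA of smooth muscle, was almost evenly split, with 49988 normalized reads for the form with an added T and 61442 for the pig-named form. The ratio was 0.893 (median; range 0.424 to 1.25) and above 1 in 6 of 30 libraries. The form with an added A was far rarer, at 1083 normalized reads and a median ratio of 0.0174. For miR-100 the form with an added T was the more abundant in 22 of 30 libraries, at 2591 against 1799 normalized reads and a median ratio of 1.48 (0.302 to 3.52). The lowest median ratio for a single added base was 0.000556, for miR-27b-3p with an added G. The part of adapter ligation, which favours some ends, in these ratios was not tested.

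**Figure D2:**
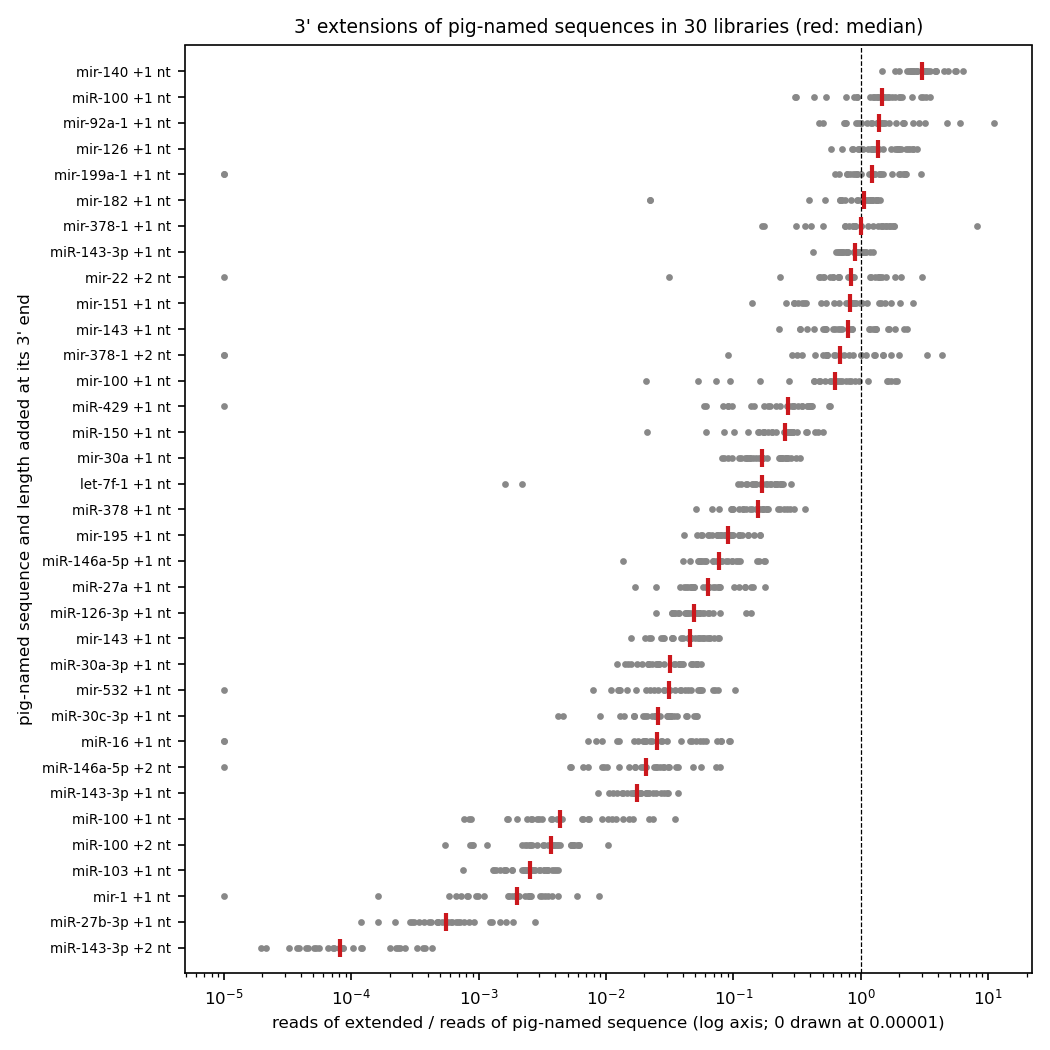
Ratio of the reads of each of the 35 extended sequences to those of the pig-named sequence it extends (x axis, log scale; 0 drawn at 0.00001), by pig-named sequence and length added (y axis), with 1 grey point per library and the median in red. The dashed line marks equal reads: 6 medians lie above it, and let-7f, mir-182, mir-199a and miR-16 with an added C each have 2 libraries far below the rest.

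Some sequences with an added C were far lower in PD20 replicate 3 and CD16 replicate 3 than in the other libraries. let-7F with an added C stood at 0.168 of the pig-named let-7f over all libraries (median), but at 0.00161 in PD20 replicate 3 and 0.00220 in CD16 replicate 3, where 67 and 50 reads were found against 2971 to 12761 in the other 28 libraries. Its level was 2919, 2521, 27.8, 1938, 2737 and 3684 normalized reads in PD20 replicates 1 to 6 and 3433, 2581, 23.6, 3219 and 3670 in CD16 replicates 1 to 5. For miR-182, a miRNA of the miR-183 cluster known from sensory organs, the ratio was 0.0222 and 0.0223 in these libraries and 0.394 or more in the others.

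Among the 153, the 5 that add C to a pig-named sequence all had lower ratios in both libraries than in any of the other 28. For mir-199a the ratio was 0 in both against 0.625 or more, and for mir-16 it was also 0 in both. mir-1-1 stood at 0.000163 in PD20 replicate 3 and 0 in CD16 replicate 3, against 0.000582 or more. Over the whole list, most sequences with an added C did not drop that far. Among all 86 pairs on the list in which the longer sequence added C and each had at least 300 reads over the libraries, the ratio lay over 8-fold below its median over libraries in 13 pairs in PD20 replicate 3 and in 12 in CD16 replicate 3, with 10 in both, and in at most 2 pairs in any other library. Of these low pairs, 8 of 13 and 7 of 12 had one of the 153 as the longer sequence, out of 11 such pairs, and 5 in either library did not, out of 75. For added A (103 pairs), G (115) and T (188), the counts in these 2 libraries were 0 or 1. The pool and barcode of each library are not given in the sources used here, and the cause was not tested. No sequence called by the quasi-likelihood F-test below ends in an added C. Without PD20 replicate 3, calls among the 153 fell to 0 in PD20 vs. PD16 and to 2 in PD20 vs. CD20, but this was not particular to that library. The count in PD20 vs. PD16 was also 0 without PD16 replicate 2, 3, 4 or 5 or PD20 replicate 5. In PD20 vs. CD20 it was also 2 without PD20 replicate 5 or 6 or CD20 replicate 1 or 2.

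The other tools run, the likelihood ratio test and DESeq2, both called 3 sequences with an added C. Fits without both libraries, chosen after seeing the data, give their values. mir-16, at 0 reads in both libraries, had a log2 fold change of 2.33 in CD20 vs. CD16 and was no longer called by either tool without them (2.06, adjusted p = 0.0688 in the likelihood ratio test and 0.0528 in DESeq2). mir-1-1 had a change of 4.49 in the status difference from D16 to D20 and 5.15 without them, called by the likelihood ratio test (adjusted p = 0.00486), while DESeq2 gave no adjusted p. miR-409-5p, which adds a C to a listed miR-409a, went from 2.19 to 2.27 in CD16 vs. CD12, with an adjusted p of 0.0472 in the likelihood ratio test and 0.0506 in DESeq2. The likelihood ratio test alone also called mir-1-1 in PD20 vs. PD12, PD20 vs. PD16 and PD20 vs. CD20, with and without these libraries.

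The 153 sequences had 74 distinct seeds, of which 38 also occurred in pig-named sequences. Of the 153, 83 shared their seed with a pig-named sequence and 70 did not. When overlapping sequences were joined, the 153 came from 68 strands, and on 16 of these strands, with 74 sequences, reads began at more than 1 position and so carried more than 1 seed.

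miR-203a, a miRNA best known from stratified epithelium, had its reads split between neighbouring starts. Over its 11 sequences, 57.5% ± 3.11 (SD, n = 30) of the reads began at the main start, that of its most abundant sequence, with seed TGAAATG and 41.9% ± 3.14 began 1 base later with seed GAAATGT. The main start was the larger in every library, at 50.7% to 63.9%. When all deposited reads that share the first 17 bases were counted, the order turned, to 46.4% ± 4.54 and 52.9% ± 4.59. PD20 had the highest share of the main start, 61.3% ± 1.82, against means of 54.1% to 57.6% in the other groups.

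The 6 sequences of ENSSSCG00000027451, which resemble the 3' strand of miR-34b as far as background knowledge goes, began at 3 positions. The main start had 71.8% ± 2.58 of the reads, the start 1 base earlier 9.49% ± 1.89 and the start 1 base later 18.7% ± 2.55. Several other strands had nearly all reads at a single start. The main start took 97.0% ± 0.403 of the reads of miR-375, 97.9% of miR-25, 99.3% of miR-200b-3p and 99.9% of miR-200c. The minor 5' strands of the miR-200 hairpins were less even, with 75.5% for miR-200b and 87.7% for miR-200a, and mir-330 had 65.3% ± 12.3 (27.3% to 89.3%) at its main start.

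**Figure D3:**
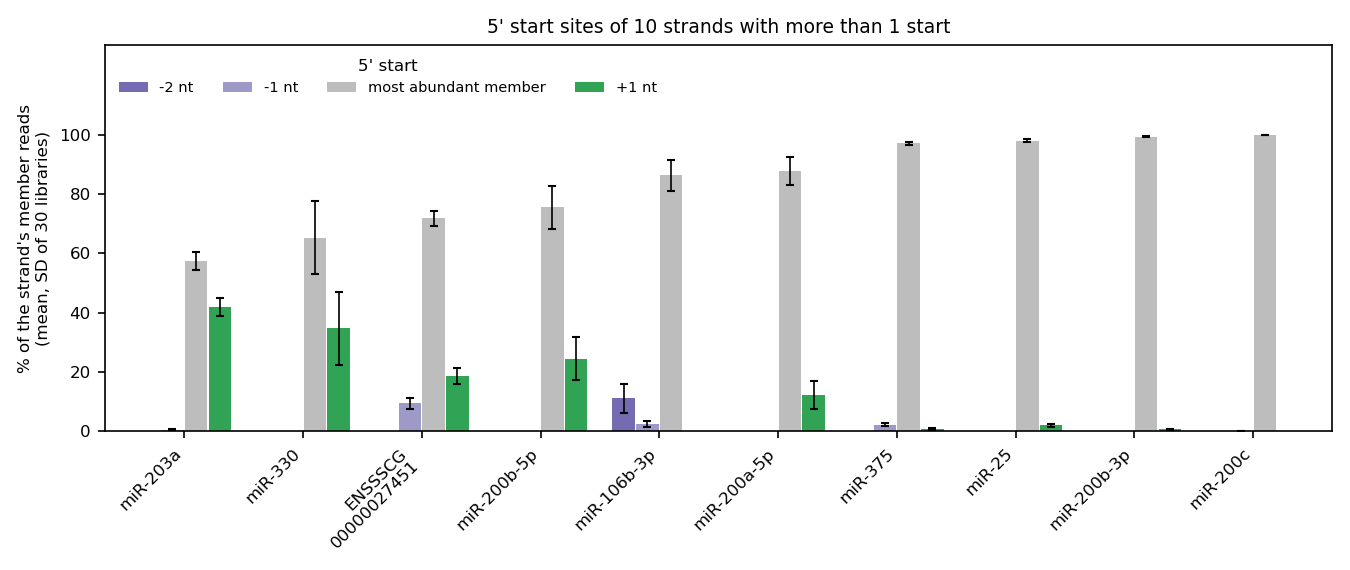
Mean percent of the reads of a strand (y axis; bars, with SD over 30 libraries as error bars) that began at each start position relative to the start of its most abundant sequence (colours), for 10 strands with more than 1 start (x axis). miR-203a is close to an even split, 57.5% and 41.9%, whereas miR-200c has 99.9% at 1 start.

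Epithelial miRNAs formed the largest group of roles, with 52 of the 153 sequences. All 8 miRNAs of an epithelial marker list were read, in 51 listed sequences of which 46 are among the 153: pig names were missing from the list for the whole of miR-200a, miR-200b, miR-200c, miR-141, miR-203 and miR-375. The summed level of the marker list was 13694 ± 3082 normalized reads on D12, 14892 ± 3489 on D16 and 12773 ± 3088 on D20 of pregnancy, and 10577 ± 1577, 14926 ± 4327 and 8836 ± 2354 on these days of the cycle. The most abundant member was miR-200c, which holds down the mesenchymal regulators ZEB1 and ZEB2, with a mean of 4616 normalized reads over 30 libraries.

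Among the abundant epithelial strands, levels ran from miR-200c (7 sequences, group means of 3208 to 7221 normalized reads) and miR-200b-3p (8 sequences, 3403 to 6331) to miR-375 (5 sequences, 464 to 1695) and miR-203a (11 sequences, 470 to 2048). The rest of the marker list was lower, with group means of 214 to 332 for miR-200a, 139 to 409 for miR-141, 18.3 to 66.7 for miR-429 and 5.95 to 63.3 for miR-205. For miR-200c the CD20 libraries held 1228, 2862, 2898, 4613 and 4441 normalized reads and the PD16 libraries 4437, 7152, 6854, 11079 and 6581. For miR-375, known as a miRNA of endocrine and secretory cells, they held 431, 211, 785, 560 and 331 in CD20 and 2762, 1126, 137, 1528 and 2594 in CD16. CD16 replicate 3 was thus below every CD20 library for miR-375, and the other 4 CD16 libraries were above them all.

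miR-203a varied widely among D12 libraries. The PD12 libraries held 524, 635, 555, 2877 and 5647 normalized reads and the CD12 libraries 3202, 384, 491 and 397. In PD16 the sums were 400 to 830 and in CD16 313 to 615. PD20 libraries held 621, 793, 1312, 1697, 1200 and 2837 and CD20 libraries 586, 819, 619, 501 and 634. A few D12 libraries of either status were therefore several-fold above the rest, and on D20 5 of the 6 pregnant animals were above 4 of the 5 cyclic ones.

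Among Ensembl-named sequences without a miRNA number, ENSSSCG00000022650 was the most abundant, at a mean of 283 normalized reads. Its letters are those of the main strand of miR-26b as far as background knowledge goes. It held 178, 167, 222, 272 and 125 normalized reads in PD12, 338, 381, 340, 282 and 580 in PD16, and 162, 395, 249, 371, 222 and 447 in PD20. In cyclic animals it held 273, 192, 307 and 132 in CD12, 146, 162, 143, 283 and 307 in CD16 and 411, 249, 387, 308 and 464 in CD20. PD16 libraries were all above PD12, a difference that was not called by the test described next.

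Comparisons between groups asked which sequences changed along pregnancy, along the cycle and between pregnant and cyclic animals on the same day. Each was fitted across the whole list with edgeR's quasi-likelihood F-test, and a sequence was called where the Benjamini-Hochberg adjusted p was under 0.05 and the log2 fold change past 1. Within a status, D12 was set against the later days in a joint test. Calls were few. In PD16 vs. PD12 0 of the 153 were called (0.229% of the list), in PD20 vs. PD12 1 (0.802%), in PD20 vs. PD16 1 (0.573%), in CD16 vs. CD12 0 (0.115%), in CD20 vs. CD12 0 (0.458%) and in CD20 vs. CD16 1 (0.458%).

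Between statuses, 0 of the 153 were called in PD12 vs. CD12 (0% of the list) and 0 in PD16 vs. CD16 (0%), and 4 in PD20 vs. CD20 (1.49%). Of these 4, 2 were higher (0.687% of the list) and 2 lower (0.802%) in PD20. The higher ones were Ensembl-named and the lower ones other-species-named. At an unadjusted p under 0.05 in edgeR, 31 of the 153 passed the joint test of the later days against PD12 (18.7% of the list), 24 passed in PD20 vs. PD16 (14.2%), 45 in the joint test against CD12 (23.9%), 40 in CD20 vs. CD16 (21.2%), 11 in PD12 vs. CD12 (6.07%), 9 in PD16 vs. CD16 (10.9%) and 48 in PD20 vs. CD20 (28.5%). As shares of the 153 these were 20.3%, 15.7%, 29.4%, 26.1%, 7.19%, 5.88% and 31.4% in the same order.

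The calls depend on how the list was made. A sequence was annotated only if 1 group or more had 4 libraries (3 for CD12) with 10 or more reads each. By the counts used here, 74 of the 153 met this in all 6 groups, 27 in 1 group only and 4 in none. Of the 7 called sequences, 4 met it in 1 group only: the miR-302 read and the longer form of ENSSSCG00000026388 in PD20, and mir-146a and miR-495 in CD20. miR-380 met it in all 6 groups, miR-106b-5p in all but CD16 and mir-449a in PD12 and PD16. A sequence that entered through the group where it is high was bound to be high there, so the calls on those 4, which include 3 of the 4 in PD20 vs. CD20, and their lack of overlap are descriptions and no independent support for a difference.

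More sequences were called by the other tools run. For the comparisons at 0 in the quasi-likelihood F-test, the likelihood ratio test called 5 in PD16 vs. PD12 (2.75% of the list), 9 in CD16 vs. CD12 (5.27%), 3 in CD20 vs. CD12 (5.73%), 0 in PD12 vs. CD12 (0.115%) and 1 in PD16 vs. CD16 (0.573%), and DESeq2 called 6 (2.86%), 10 (5.84%), 6 (6.41%), 0 (0%) and 1 (0.802%) in the same order. The likelihood ratio test and DESeq2 called 8 and 8 in PD20 vs. PD12 (5.27% of the list by either), 5 (2.41%) and 4 (1.72%) in PD20 vs. PD16 and 8 (6.41%) and 12 (8.25%) in CD20 vs. CD16. In PD20 vs. CD20 either tool called 29, 13 higher and 16 lower (14.2% of the list by the likelihood ratio test and 15% by DESeq2).

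**Figure D4:**
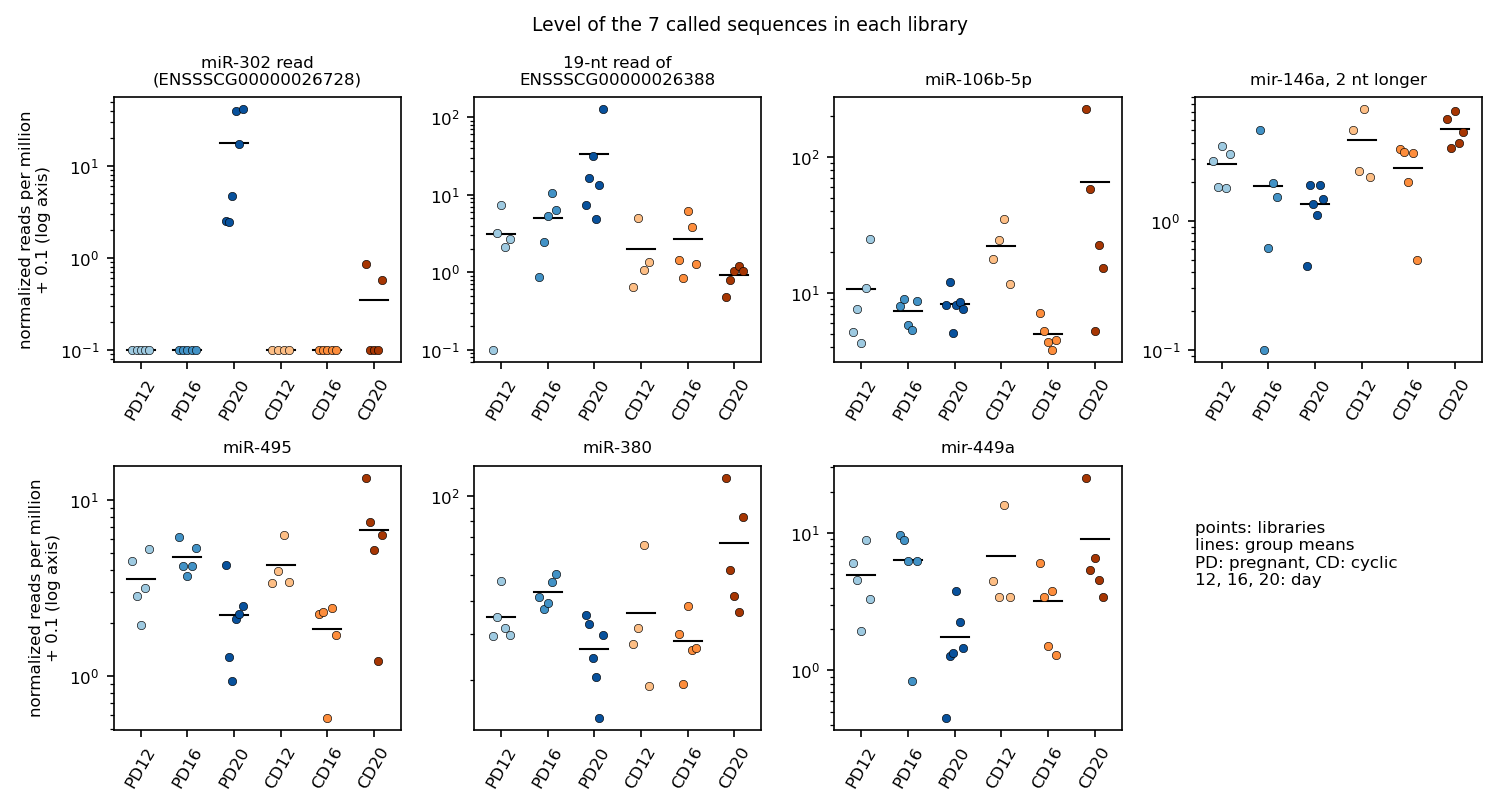
Normalized reads plus 0.1 (y axes, log scale) of the 7 called sequences in each library (points), by pregnant (PD) and cyclic (CD) group and day (x axes), with group means as lines. The miR-302 read is seen in all 6 PD20 libraries, from 2.37 to 41.2, and at 0 in PD12, PD16, CD12 and CD16.

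The miR-302 read, ENSSSCG00000026728, belongs by the study's name to a miRNA family best known from pluripotent embryonic cells. It held 2.44, 2.37, 4.57, 39.3, 17.1 and 41.2 normalized reads in PD20 replicates 1 to 6. In CD20 it held 0.757, 0, 0, 0 and 0.476, and it was at 0 in all PD12, PD16, CD12 and CD16 libraries. PD20 did not overlap any other group, and within PD20 replicates 1 to 3 were low and 4 to 6 high.

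In edgeR its log2 fold change was 5.86 (SE 1.05, adjusted p = 0.00775) in PD20 vs. CD20. The 308 reads in PD20 and 3 in CD20 gave a ratio of 75.4 after scaling (95% exact interval 25.6 to 367, counting error only). PD20 vs. PD12 gave 8.50 (edgeR, SE 1.42, adjusted p = 0.00929) and PD20 vs. PD16 8.50 (edgeR, SE 1.5, adjusted p = 0.0314), sizes that depend on the prior count since PD12 and PD16 were at 0. Against a floor of 3 reads per library, PD20 was at least 16.7-fold higher than PD12 and at least 12.7-fold higher than PD16. The call in PD20 vs. CD20 held in all 11 fits that left out a library and that in PD20 vs. PD12 in all 16, but that in PD20 vs. PD16 in 10 of 16.

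With at most 2 reads in any library outside PD20, the miR-302 read entered the list through PD20 alone, so its calls, ratio and floors for PD20 are no independent support for the difference. Counting every deposited read with the same first 17 bases gave 440 of 445 reads in PD20 (98.9%), with 1 in PD16, 1 in CD12 and 3 in CD20. Of 5 miRNAs on a list for embryonic stem cells and trophoblast (miR-302, miR-367, miR-371, miR-372 and miR-373), this was the only one on the published list. No sequence of the other 4 was on that list, so they were not counted. PD20 also had the highest mean of an erythrocyte list (miR-451, miR-144 and miR-486, led by mir-451), 2190 ± 1177 normalized reads against group means of 972 to 1446. Most of that PD20 mean was miR-451, at 1957. The mean of miR-144 was also highest in PD20, but that of miR-486 was higher in PD12 and CD16. PD20 replicate 2 was lowest for the list, at 822, and for the miR-302 read. Replicate 6, highest for the miR-302 read, held 1229 of the list. The part of remaining embryonic tissue or of blood in these levels was not tested.

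ENSSSCG00000026388 was the other sequence called higher in PD20 than in CD20. Its longer, 19-nt form also entered the list through PD20 alone, where 6 libraries had 10 or more reads against 0 in CD20, so the values, the call and the ratio below describe a sequence selected for being high there. It held 7.33, 16.6, 31.2, 4.70, 13.2 and 126 normalized reads in PD20 replicates 1 to 6 and 0.379, 0.705, 0.931, 1.11 and 0.952 in CD20. The groups did not overlap and PD20 replicate 6 was far above the next library. The log2 fold change was 5.29 (edgeR, SE 0.895, adjusted p = 0.00535) and called in all 11 fits that left out a library, with 4.13 without PD20 replicate 6. The ratio of the 546 reads in PD20 to the 9 in CD20 was 44.5 after scaling (95% exact interval 23.3 to 97.9, counting error only). Without that library the PD20 mean was 14.6 ± 10.4 in place of 33.2 ± 46.6.

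In the other groups this form ranged from 0 to 10.4 normalized reads, with 0, 3.09, 7.39, 2.03 and 2.56 in PD12, 0.758, 2.36, 5.16, 10.4 and 6.19 in PD16, 0.548, 4.87, 0.957 and 1.24 in CD12 and 1.35, 0.739, 6.13, 3.71 and 1.20 in CD16. PD20 vs. PD12 gave 3.47 (edgeR, SE 0.880, adjusted p = 0.0520), which was not called by the F-test but was by the likelihood ratio test (adjusted p = 0.00287) and DESeq2 (0.00152). The 18-nt form, which lacks the last base and has the same seed, was at 15.4 ± 7.95 in PD20 and 7.12 ± 8.16 in CD20 and was not called either (log2 fold change 1.17, adjusted p = 0.213 in edgeR). Both forms hold the letters of the A box of tRNA genes from base 8. That motif was found on the read strand of 6 listed sequences (0.687%), 4 of them among the 153 (2.61%), where the other 2 are miR-141 reads with the match from base 11. A match of letters is a description only. All deposited reads with the first 17 bases numbered 1137 in PD20, 554 of them in replicate 6, and 153 in CD20. Per 1000000 deposited reads these were 15.9 to 142 in the 6 PD20 libraries and 3.31 to 27.2 in the 5 CD20 libraries, which overlap.

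A form of a miRNA of the immune response was called lower in PD20. mir-146a, a brake on NF-kappaB signalling, was present in a form with 2 added bases that held 0.349, 1.77, 1.25, 1.01, 1.78 and 1.36 normalized reads in PD20 and 6.06, 3.53, 6.98, 3.90 and 4.76 in CD20. The groups did not overlap. The log2 fold change was -1.99 (edgeR, SE 0.444, adjusted p = 0.0368), but the call held in only 4 of 11 fits that left out a library. This form entered the list through CD20 alone, where 4 libraries had 10 or more reads against 0 in PD20, so its call and the lack of overlap are no independent support for a lower level in PD20. The form with 1 added base was at 9.54 ± 4.26 in PD20 and 18.5 ± 6.34 in CD20. A leukocyte list (miR-142, miR-150 and miR-155, led by mir-142, with no sequence of miR-223 on the published list) stood at 110 ± 32.8 in PD20 and 122 ± 51.7 in CD20. Its miRNAs did not move together. The PD20 and CD20 means were 61.0 and 57.7 for miR-142, 39.6 and 44.2 for miR-150 and 9.63 and 20.6 for miR-155, sums that were not tested.

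miR-106b-5p belongs to a cluster with miR-93 and miR-25 in an intron of the cell-cycle gene MCM7, and its family represses the cell-cycle inhibitor p21. It held 225, 58.2, 5.12, 22.3 and 15.2 normalized reads in CD20 replicates 1 to 5, against 6.99, 5.18, 4.25, 3.71 and 4.39 in CD16 and 8.02, 11.8, 4.99, 8.05, 8.53 and 7.49 in PD20. In CD12 it held 17.5, 24.6, 34.9 and 11.5. CD20 replicate 1 was the highest library, and CD20 replicate 3 was within the range of CD16 and PD20.

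CD20 vs. CD16 gave a log2 fold change of 3.64 (edgeR, SE 0.768, adjusted p = 0.0258), called in 7 of 14 fits that left out a library. PD20 vs. CD20 gave -3.00 (edgeR, SE 0.713, adjusted p = 0.0486), called in 4 of 11 such fits. Without CD20 replicate 1 it gave -1.59 and was not called. Without that library the CD20 mean was 25.2 ± 23.1 in place of 65.2 ± 91.7. CD16 vs. CD12 gave -2.06 (adjusted p = 0.0526 in edgeR), which was not called by the F-test but was by the likelihood ratio test (adjusted p = 0.00105) and DESeq2 (0.000678).

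The strands of the mir-106b hairpin had means in opposite order in CD20 and PD20, each with overlapping libraries. The 3 sequences of the 5' strand summed to 108 ± 147 normalized reads in CD20 and 17.6 ± 4.71 in PD20, whereas the 7 sequences of the 3' strand summed to 201 ± 165 in CD20 and 359 ± 91.3 in PD20. In CD20 replicate 1 the ratio of 5' to 3' reads was 9.24 (961 against 104 reads), and in CD20 replicate 2 it was 1.31 (287 against 219). In the other 28 libraries it was 0.0277 to 0.567. CD20 replicates 1 and 2 therefore had both the most 5' and, at 39.4 and 77.2 normalized reads, the fewest 3' reads of the 30 libraries.

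The pig-named miR-20a and miR-17-5p, which share this seed, were also highest in CD20 replicates 1 and 2 among the CD20 libraries. miR-20a held 2548, 1980, 1219, 713 and 690 normalized reads in CD20 replicates 1 to 5 against 613 ± 174 in PD20, and miR-17-5p held 244, 174, 83.8, 42.9 and 55.7 against 34.3 ± 16.1. The pig-named mir-106a, with the same seed, did not follow, with 11.4, 1.06, 3.26, 2.78 and 2.86 against 3.94 ± 0.657, lowest in replicate 2. The cluster partners did not follow as a set either. The most abundant form of miR-93, with the same seed, was highest in CD20 replicate 3, and its rarer forms in replicates 1 and 2. The miR-25 strand, with another seed, was lowest in CD20 replicates 1 and 2, at 492.7 and 319.7 against 607.5 or more. In CD20 vs. CD16, 0 calls were left without CD20 replicate 1 or without replicate 2. In PD20 vs. CD20, 2 were left in each of these fits, those on the miR-302 read and ENSSSCG00000026388. miR-106b-5p was thus not called in any of them. The part of both libraries together was not tested.

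**Figure D5:**
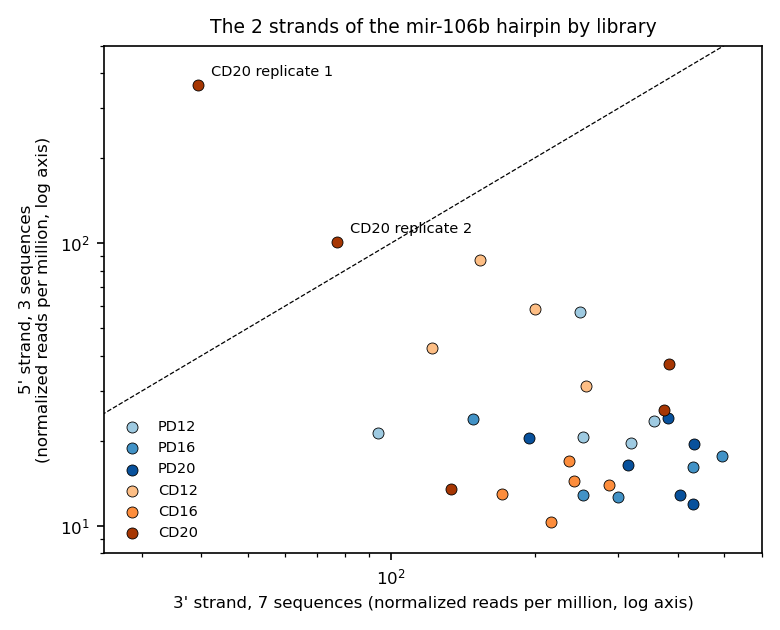
Summed normalized reads of the 5' strand (3 sequences) and of the 3' strand (7 sequences) of the mir-106b hairpin in each library (log axes), coloured by group. CD20 replicates 1 and 2 lie on the other side of the line of equal reads from the remaining 28 libraries.

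Whether the difference between pregnant and cyclic animals changed with the day was tested in 1 fit of all groups. Between D20 and D12, 0 of the 153 departed (0.115% of the list; 21 at an unadjusted p under 0.05 in edgeR, 13.7% of the 153 beside 16.4% of the list, 2 called by the likelihood ratio test, 1.83% of the list, and 3 by DESeq2, 2.75%). Between D20 and D16, 4 were called (2.41% of the list), all with a lower difference on D20: miR-106b-5p, miR-495, miR-380 and mir-449a.

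miR-495 and miR-380 come from the large imprinted DLK1-DIO3 miRNA cluster, which is maternally expressed in mammals. miR-380 held 117, 52.2, 41.4, 36.2 and 82.8 normalized reads in CD20 and 35.2, 32.5, 24.1, 20.5, 14.2 and 29.6 in PD20, without overlap. On D16 the order was the other way, with 41.3, 37.1, 39.2, 46.9 and 50.4 in PD16 and 29.9, 19.2, 38.2, 26 and 26.3 in CD16. The change of the difference was -1.96 on the log2 scale (edgeR, SE 0.475, adjusted p = 0.0431), called in 16 of 30 fits that left out a library.

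miR-495 held 13.3, 7.40, 5.12, 1.11 and 6.19 normalized reads in CD20 and 4.19, 1.18, 0.831, 2.01, 2.13 and 2.38 in PD20, with 1 CD20 library within the PD20 range. On D16 PD16 libraries held 3.61 to 6.07 and CD16 libraries 0.472 to 2.32. The change was -2.97 (edgeR, SE 0.673, adjusted p = 0.0431), called in 20 of 30 such fits. miR-495 entered the list through CD20 alone, a group that enters this change, so the change is given as a description. Of the 12 sequences of the cluster, 1 was higher and 4 lower in PD20 vs. CD20 at an unadjusted p under 0.05, with a median log2 fold change of -0.09 beside -0.03 over the whole list, so 41.7% passed that p beside 28.5% of the list. In CD20 vs. CD12, 6 were higher and 0 lower (median 0.59 beside 0.09), 50% beside 23.9% of the list in the joint test. By that joint test, 3 were higher and 3 lower in CD16 vs. CD12 (median 0.25 beside 0.03). CD20 vs. CD16 gave 4 higher and 1 lower (41.7% beside 21.2% of the list), with a median of -0.50 beside -0.03.

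mir-449a, a miRNA of ciliated epithelium with the seed of miR-34, held 25, 5.29, 6.52, 4.46 and 3.33 normalized reads in CD20 and 0.349, 1.18, 1.25, 3.69, 2.13 and 1.36 in PD20, with a slight overlap. On D16 it held 9.48, 8.84, 6.19, 0.745 and 6.19 in PD16 and 5.92, 3.33, 1.42, 3.71 and 1.20 in CD16. The change was -3.34 (edgeR, SE 0.891, adjusted p = 0.0440) and was called in only 10 of 30 fits that left out a library. It entered the list through PD12 and PD16, the latter a group of this change. The CD20 mean fell from 8.92 ± 9.06 to 4.90 ± 1.34 without replicate 1. For miR-106b-5p the change was -3.55 (edgeR, SE 0.861, adjusted p = 0.0431), called in 17 of 30, and -2.16 without CD20 replicate 1, where it was not called. The likelihood ratio test called 11 of the 153 for this change (5.38% of the list) and DESeq2 11 (5.96%).

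Classes and role groups are given as counts at an unadjusted p under 0.05 in edgeR, beside the median log2 fold change, and 28.5% of the whole list passed that p in PD20 vs. CD20. In that comparison the 43 Ensembl-named sequences had a median of -0.29, with 7 higher and 9 lower (37.2%), and the 107 other-species-named a median of 0.31, with 18 higher and 14 lower (29.9%). In PD20 vs. CD20 the 52 epithelial sequences had a median log2 fold change of 0.52 beside -0.03 over the whole list, with 11 higher and 6 lower (32.7%), a share near that of the list. The higher ones included 5 of 8 sequences named miR-203a (median 1.10) and 3 of 4 named miR-375 (median 1.10), as did the fifth read of the miR-375 strand, ENSSSCG00000026963 (2.31), which is not among the 52. Others pointed the other way, and 7 of 8 named miR-200a had a log2 fold change below 0 (median -0.62, 2 lower at that p). Over the marker list the PD20 and CD20 means were 139 and 370 normalized reads for miR-141, 18.3 and 53.6 for miR-429 and 5.95 and 54.8 for miR-205, sums that were not tested. The longest of 3 forms of mir-96 (-2.26) and the longer of 2 of mir-449a (-2.38) were called lower in PD20 by the likelihood ratio test (adjusted p = 0.0366 and 0.00685) and DESeq2 (0.0334 and 0.00652). The 18 sequences of the miR-106b/93/25 cluster had a median of 0.37, with 4 higher and 5 lower (50%). All 12 sequences of the let-7 family, which restrains growth, together gave a median of 0.26, with 1 higher and 1 lower (16.7%), and 6 sequences of miR-143 and miR-1 gave 0.83, with 1 higher (16.7%). PD20 replicate 1, with its high smooth muscle and muscle miRNA levels, moves with the last value.

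From D12 to D16 and from D16 to D20 of pregnancy, the sequences named miR-203a and miR-375 had medians of opposite sign, whereas in PD20 vs. PD12 both were below 0 (-0.64 and -0.08). In PD16 vs. PD12 all 8 sequences named miR-203a had a log2 fold change below 0 (median -1.92 beside 0.05 over the whole list, 6 at an unadjusted p under 0.05 in the joint edgeR test, which 18.7% of the list passed), whereas the 4 named miR-375 were above 0 (median 0.81). The fall of miR-203a rested on the few PD12 libraries with high sums given above. The other PD12 sums lay within the PD16 range. In PD20 vs. PD16 the 8 of miR-203a were above 0 (median 1.30, 4 at that p beside 14.2% of the list). The 4 of miR-375 were below 0 (median -0.85). The fifth read of the miR-375 strand, ENSSSCG00000026963, did not follow these 4, with 1.87 in PD16 vs. PD12, 0.28 in PD20 vs. PD16 and 2.15 in PD20 vs. PD12. In CD16 vs. CD12 and CD20 vs. CD16, all 4 of miR-375 passed that p, as did 23.9% and 21.2% of the list, with medians of 1.04 and -1.63, and the fifth read passed it with 1.5 and -1.84. Sequences of 1 strand share their source molecule and are no replicates of each other. The quasi-likelihood F-test called none of these sequences, but both other tools called some. In PD16 vs. PD12 these were 2 sequences named mir-203a and 1 named miR-203, with log2 fold changes of -3.01, -2.22 and -2.11 (adjusted p of 0.0377, 0.0382 and 0.0436 in the likelihood ratio test and 0.0286, 0.0353 and 0.0396 in DESeq2). The 22-nt mir-375 was called by both in CD16 vs. CD12 (1.24, adjusted p = 0.0324 in the likelihood ratio test and 0.0321 in DESeq2) and in CD20 vs. CD16 (-1.94, 0.0263 and 0.0186). Both tools also called mir-203a in PD20 vs. PD12 (-1.21), mir-203a and miR-203 in PD20 vs. CD20 (1.18 and 1.45), and ENSSSCG00000026963 in PD16 vs. PD12, PD20 vs. PD12 and PD20 vs. CD20.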

How the data were processed

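Endometrial total RNA was isolated with a mirVana kit, small RNA libraries were made with a NEXTflex kit and sequenced on an Illumina GAIIx, per the labels and the study's methods. The deposited files hold counts: the authors removed low-quality reads, reads without an adapter, short reads and reads with unknown bases, and counted identical reads, so that a value is the number of reads of a sequence of 17 to 31 nt in a library. No molecular identifiers were used, so intervals and floors cover counting error only. The published list, from which sequences and names were taken, held sequences with a minimum read number in a group and full identity to Ensembl Sscrofa10.2, miRBase or EMBL entries. Its columns of fold changes and p-values hold the study's own comparisons and were not used.

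Listed sequences were counted by exact match. Counts were scaled by TMM over the reads of the 873 sequences (CPM). Fits used edgeR 4.0.16 (quasi-likelihood F-test, prior count 0.125 for fold changes) in R 4.3.3 across all 873 sequences, with D16 and D20 tested jointly against D12 within pregnant or cyclic animals, and with all 6 groups for the changes of the status difference. Alternatives were the likelihood ratio test, DESeq2 1.42.0, other scalings, a minimum of 10 CPM, a fit of all libraries, a replicate block and leaving out each library. Tested on simulated data with 4-fold changes in 3 draws for each of the 9 comparisons of groups (873 sequences), the fit recovered 78.0% (CD16 vs. CD12) to 90.8% (PD20 vs. PD12) of changed sequences, and 1.27% to 3.86% of its calls were false.

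Strands were joined from sequences overlapping by at least 15 nt, and a sequence with its 3' variants was also counted from its first 17 bases. Same-numbered replicates did not deviate together (median r of -0.0423 over 70 pairs, 18 of them over 0.1), so numbers were not taken to pair animals, and no pair of libraries held identical counts. Named sequences were those called in any comparison, the 10 most abundant of the Ensembl-named and of the others, the most abundant of each Ensembl gene and role family, and the 2 with the smallest p in each comparison. Role groups and marker lists (muscle, erythrocyte, leukocyte, epithelium, embryonic, smooth muscle) went by miRNA number. The members and lists were chosen with earlier results of these data known. None of the 21 Ensembl identifiers matched the gene tables used here, and genome positions were not analysed here. Python 3.11.15 and matplotlib 3.10.9 were used for tables and figures.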

Additional observations from a re-analysis of the deposited data

Results flagged for a closer look

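Among 60 groups of values, 6 held a library far from the others by Dixon's test, where chance gives about 1 in 20. PD20 replicate 6 held 126 normalized reads of ENSSSCG00000026388 (next 31.2), and CD12 replicate 2 held 4.87 (next 1.24). CD20 replicate 1 held 225 of miR-106b-5p (next 58.2) and 25 of mir-449a (next 6.52). CD12 replicate 3 held 15.8 of mir-449a (next 4.38). The EMBL-clone-named share in PD20 replicate 1 was 15.7% (next 6.27%).

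The difference between pregnant and cyclic animals departed between D20 and D16 for 4 sequences in edgeR's test of that change: mir-449a by -3.34 on the log2 scale, miR-495 by -2.97, miR-380 by -1.96 and miR-106b-5p by -3.55. Without CD20 replicate 1 the change of miR-106b-5p was -2.16 and was not called. miR-495 entered the published list through CD20 alone, the group in which it was highest, so its change is a description and no independent support. mir-449a entered through PD12 and PD16, and PD16 is a group of that test. The longer form of ENSSSCG00000026388 entered through PD20 alone.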

How the results depend on the processing

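Counts of calls among the 153 sequences depended on the test. By the likelihood ratio test they were 5 in PD16 vs. PD12, 8 in PD20 vs. PD12, 5 in PD20 vs. PD16, 9 in CD16 vs. CD12, 3 in CD20 vs. CD12, 8 in CD20 vs. CD16, 1 in PD16 vs. CD16 and 29 in PD20 vs. CD20, and 2 and 11 for the change of the status difference from D12 or D16 to D20. By DESeq2 they were 6, 8, 4, 10, 6, 12, 1 and 29, and 3 and 11, in the same order. With at least 10 CPM, which left out low sequences, they were 1 in PD16 vs. PD12, 0 in PD20 vs. PD16, 0 in PD20 vs. CD20 and 2 for the change from D16, beside 0.911%, 0.729%, 0.182% and 2.91% of the sequences left. In 1 fit of all libraries they were 2 in PD20 vs. PD12, 2 in PD20 vs. PD16, 10 in CD16 vs. CD12, 6 in CD20 vs. CD12, 11 in CD20 vs. CD16 and 18 in PD20 vs. CD20, beside 2.06%, 1.26%, 4.01%, 5.73%, 7.33% and 11.2% of the list. The single contrast gave 3 in PD20 vs. PD12 (2.86% of the list). RLE factors gave 1 in CD16 vs. CD12 (0.229%) and 1 in CD20 vs. CD12 (0.802%). They also gave 6 for the change from D16, 2 of them with a higher difference on D20 (2.75%). Scaling by all deposited reads gave 1, 1 and 2 in CD16 vs. CD12, CD20 vs. CD12 and CD20 vs. CD16 and 1 for the change from D12 (0.229%, 0.802%, 0.916% and 0.458%). With it, PD20 vs. CD20 gave 6, 2 higher and 4 lower (1.83%), and the change from D16 gave 6, all lower (2.29%). That scaling moved the median log2 fold change of the list by -0.23 in PD20 vs. CD20, and by up to 0.39 in the other comparisons of groups. The cause was not tested.

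Leaving out a library gave 0 to 3 calls in PD16 vs. PD12, 1 to 4 in PD20 vs. PD12, 0 to 3 in PD20 vs. PD16, 0 to 3 in CD16 vs. CD12, 0 to 2 in CD20 vs. CD12, 0 to 7 in CD20 vs. CD16, 0 to 0 in PD12 vs. CD12, 0 to 3 in PD16 vs. CD16, 2 to 23 in PD20 vs. CD20 (23 without CD20 replicate 4, where 11.9% of the list was called), and 0 to 2 and 0 to 8 for the changes from D12 and D16. Over the list the highest shares were 1.72%, 2.41%, 1.03%, 0.916%, 1.15%, 4.12%, 0%, 4.12%, 13.3%, 0.916% and 3.89% in the same order. With a replicate block, CD20 vs. CD16 gave 0 (0% of the list) and PD20 vs. CD20 gave 2 (0.573%), and the pairing moved no other count. The Ensembl-named share was 1.06% and the other-species-named 21.3% when all reads sharing the first 17 bases were counted, since such reads include pig-named forms. With mixed names counted in the other class the Ensembl-named share was 0.0719%. Without a library these shares were 0.439% to 0.463% and 1.59% to 1.64%. Of 603 alternative values for 26 tests of single sequences, 452 kept direction and side of the threshold, 63 passed it, 88 lost it and 0 turned direction.

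Depth limits the sequences with few reads, and the miR-302 read had at most 2 reads per library outside PD20.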

Other observations

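Some sequences with the smallest p in a comparison were not called by edgeR's quasi-likelihood F-test, the edgeR test meant here, although the likelihood ratio test and DESeq2 called 3 of the 4 below. miR-193, at 7.53 ± 4.47 normalized reads in PD20 (n = 6) and 1.77 ± 0.995 in PD16 (n = 5), did not overlap between these groups (log2 fold change 2.00, SE 0.500, adjusted p = 0.108 in edgeR, 0.0177 in the likelihood ratio test and 0.0133 in DESeq2). It entered the list through PD20 and CD12, with 0 PD16 libraries at 10 or more reads. Its lack of overlap and its calls by the other tools are therefore no independent support for a difference. mir-378-2 with an added T, a form of a miRNA encoded within the metabolic regulator PPARGC1B, stood at 9.16 ± 2.93 in PD16 and 38.7 ± 30.3 in CD16, again without overlap (-2.13, SE 0.508, adjusted p = 0.212 in edgeR, 0.0206 in the likelihood ratio test and 0.0248 in DESeq2). A 21-nt form of miR-200c-3p was at 43.9 ± 16.9 in PD12 and 17 ± 6.03 in CD12 without overlap (1.35, adjusted p = 0.678 in edgeR) and was called by neither other tool. An 18-nt form of let-7b had 77 reads in CD16 and 4 in CD12, a ratio of 14.9 after scaling (95% exact interval 5.60 to 56.2, counting error only), with an adjusted p of 0.0617 in edgeR, 0.00153 in the likelihood ratio test and 0.00330 in DESeq2.

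Among Ensembl-named sequences of single genes, mir-96 was at 40.6 normalized reads over the 30 libraries, mir-590 at 6.79, mir-411c at 5.67, mir-655 at 5.63, mir-330 at 5.22, mir-660 at 4.93, let-7g at 4.77, ENSSSCG00000028003 at 4.51, mir-323b at 3.13 and ENSSSCG00000021103 at 3.05. The let-7g sequence is of the minor strand of its hairpin. Each of these lay below the median pig-named sequence except mir-96.

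Libraries differed in how sequence composition moved with level. Over the listed sequences, Spearman's rho between GC content and a library's deviation from the mean ranged from -0.18 in CD20 replicate 1 to 0.28 in CD16 replicate 5, and over the 153 sequences from -0.37 in PD12 replicate 4 to 0.37 in CD16 replicate 1. Sequences within a library are not independent, and the part of this in the results was not tested.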
